A study of Mus musculus with 4 samples.

Results

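Fc receptors bind the constant part of antibodies and so tie immunoglobulins to the cells that carry the receptors. Activating receptors signal through a tyrosine motif called the ITAM, which in mice lies mostly on a shared signaling subunit, and lead to phagocytosis, degranulation or cytokine release. An inhibitory receptor with an opposing motif, the ITIM, dampens these responses, and a further group carries antibodies across or through cells. Macrophages, mast cells, neutrophils, NK cells and B cells express different sets of these receptors, and the omentum is known for clusters of leukocytes, the milky spots, beneath and between its mesothelial cells.

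The genes described here are 9 Fc receptor genes listed by name, each represented by the probe that the platform annotation pairs with that gene symbol alone. Of the 9 genes, 8 had such a probe, 1 each, among 19938 genes measured in this way. The neonatal receptor gene Fcgrt had no probe under its name in that annotation and is not analysed here. RNA came from visceral mesothelium of the omentum and from parietal mesothelium teased off the body wall muscle, in adult mice of the c57bl/6 background carrying Wt1-cre and the Rosa26ReYFP reporter. All 4 samples share this genotype, were untreated, and were hybridized to Affymetrix Mouse Gene 1.0 ST arrays, 2 per tissue. In these mice the Wt1 promoter drives Cre and so marks mesothelial cells with the fluorescent protein, but RNA was taken from the isolated tissue and no sort of labelled cells is described. By the reporter, the study judged nearly all of this input to be mesothelial. The labels call the 2 arrays of each tissue biological replicates, while the number of animals behind each is not given in the sources used here.

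All values are log2 signals after RMA, the normalization the authors applied, and each difference is visceral minus parietal mesothelium. The test was limma's, with Benjamini-Hochberg adjustment over all genes, and a call required a fold of 1.5 or more together with an adjusted p below 0.05. Array medians lay between 7.38 and 7.41, arrays of the same tissue correlated at 0.992 and 0.993 across probes, and arrays of different tissues at 0.965 to 0.969. Of 13 mesothelial markers, 8 were lower and 1 was higher in visceral mesothelium, with a median difference of -1.001. The higher one was Wt1, at 0.84 (adjusted p = 0.00363 from limma). The summed linear signal of the 13 markers was 50786 to 53108 on the visceral and 82487 to 85942 on the parietal arrays. All 10 skeletal muscle markers were lower in visceral mesothelium, with a median of -5.04. Their summed linear signal was 1836 to 1866 on the visceral and 53508 to 68137 on the parietal arrays. How far this muscle signal shifts the differences of other genes was not tested. In such bulk samples, fewer cells of a type and less RNA per cell cannot be told apart.

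Of the 8 measured Fc receptor genes, 5 were higher in visceral mesothelium, 0 were lower and 3 did not pass the test. Among all genes, 5.22% were called higher in visceral mesothelium, 4.39% lower and 9.6% in either direction. The genes that rose were the signaling subunit Fcer1g, the inhibitory receptor Fcgr2b, the activating receptors Fcgr3 and Fcgr1, and the receptor-like gene Fcrls. Those not called were the activating receptor Fcgr4, the IgE receptor Fcer2a and the transport receptor Pigr. The median difference over the 8 genes was 0.98, against 0.0015 over all genes. The lowest visceral array lay above the highest parietal array for each of the 8 genes, a pattern that 28.9% of all genes showed in this direction.

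**Figure D1:**
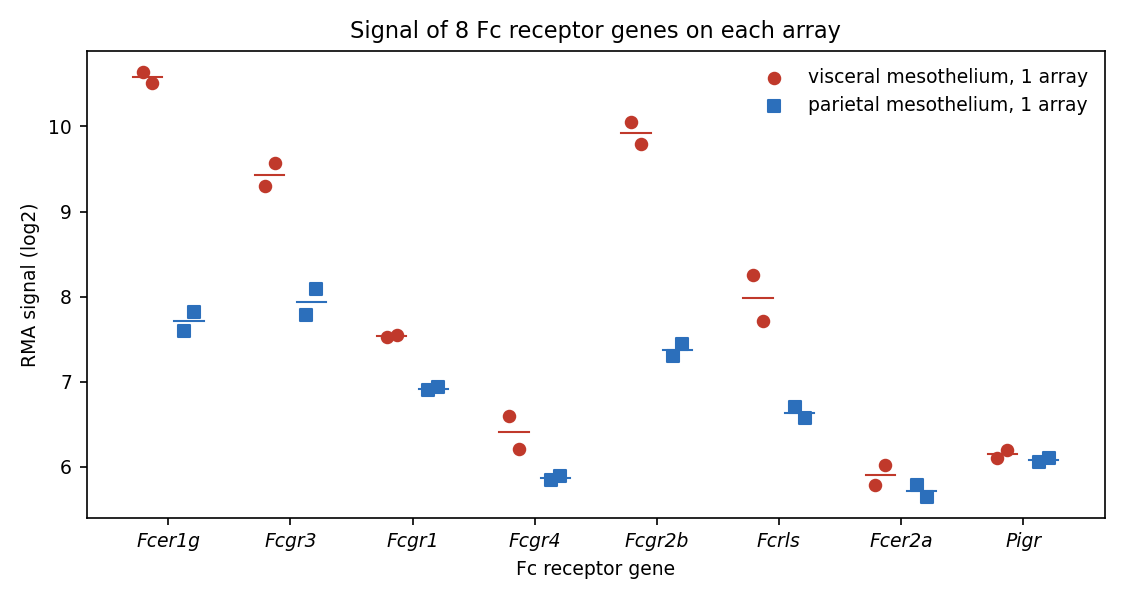
Log2 RMA signal (y axis) of the 8 measured Fc receptor genes (x axis), with 1 point per array, visceral mesothelium as circles and parietal mesothelium as squares, and the group mean as a line. The tissues stand far apart for Fcer1g (10.58 against 7.71) and Fcgr2b (9.92 against 7.37) and nearly touch for Fcer2a and Pigr.

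Fcer1g encodes the common gamma chain, the ITAM-bearing subunit through which the activating IgG receptors and the mast cell IgE receptor signal. Its signal was 10.64 and 10.52 on the visceral arrays, against 7.60 and 7.82 on the parietal arrays. Both visceral arrays were high and close together, and the groups did not overlap. The difference was 2.87 (standard error 0.11, adjusted p = 0.000121 from limma), a 7.30-fold excess with a 95% interval of 6.04 to 8.83. Fcer1g ranked 43 among the 19938 genes by its excess in visceral mesothelium.

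The activating IgG receptors that pair with this subunit had measured differences from 0.54 to 1.498. Fcgr3, a low-affinity receptor for IgG complexes found on macrophages, mast cells and NK cells, had signals of 9.30 and 9.57 on the visceral arrays, against 7.78 and 8.09 on the parietal arrays. These groups were also apart, and limma gave a difference of 1.498 (adjusted p = 0.00207, standard error 0.14), which is 2.82-fold. Fcgr1, the high-affinity IgG receptor of macrophages, had 7.53 and 7.55 on the visceral arrays, against 6.90 and 6.94 on the parietal arrays. Replicates of Fcgr1 lay close together, and its difference of 0.62 (limma, adjusted p = 0.00576, standard error 0.08) was 1.54-fold, just above the fold required. Fcgr4, an activating receptor of neutrophils and macrophages, had 6.59 and 6.21 on the visceral arrays, against 5.84 and 5.89 on the parietal arrays. The visceral arrays of Fcgr4 were spread more widely than the parietal ones, and the difference of 0.54 (standard error 0.14) did not pass (adjusted p = 0.0589 from limma). Its 95% interval, 0.19 to 0.88, ran from below to above the fold threshold of 0.585 on this scale. The interval of Fcgr1, 0.42 to 0.82, did so too, so the calls do not show that Fcgr1 and Fcgr4 changed unequally. Without visceral replicate 2 the difference of Fcgr4 was 0.73 and was called (adjusted p = 0.0205 from limma), and without visceral replicate 1 it was 0.35 and was not (adjusted p = 0.12 from limma). In these fits the lone visceral array is assumed to vary like the parietal arrays.

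Fcgr2b is the only inhibitory member of the classical IgG receptors and is found on B cells, macrophages, mast cells and some endothelium. It had signals of 10.05 and 9.80 on the visceral arrays, against 7.30 and 7.44 on the parietal arrays. The gap between the tissues was many times the gap between replicates, at 2.55 (standard error 0.12, adjusted p = 0.000175 from limma), which is 5.86-fold, with a 95% interval of 4.80 to 7.16. It ranked 69 among all genes by its visceral excess. In mice, Fcgr2b and Fcgr3 are closely similar in their extracellular parts, and whether their probes tell the transcripts apart was not tested.

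**Figure D2:**
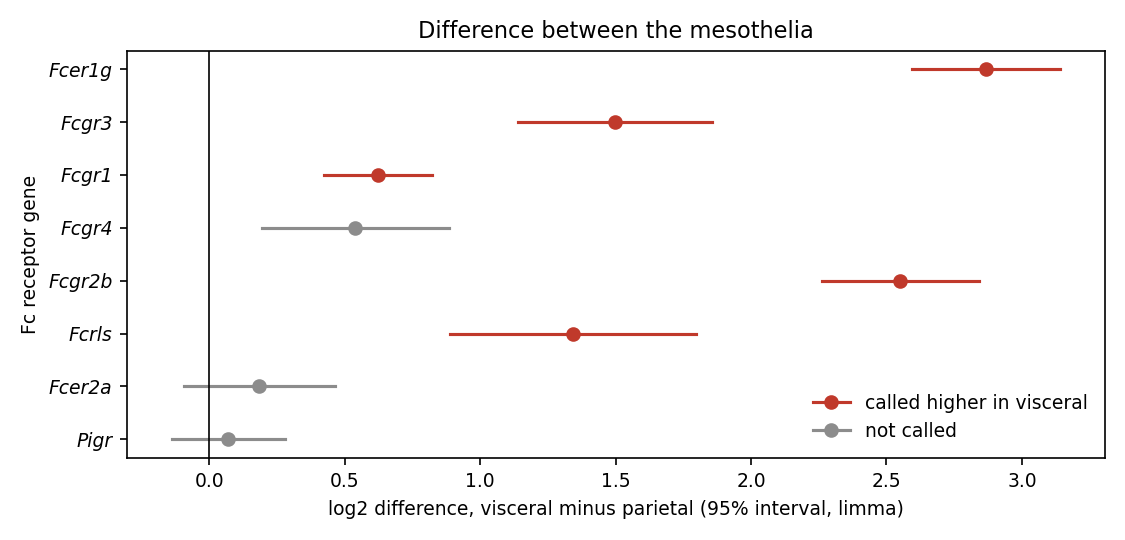
Visceral minus parietal log2 signal (x axis) of the 8 measured Fc receptor genes (y axis), with 95% intervals from limma, red where called higher in visceral mesothelium and grey where not called. The intervals of Fcer1g (2.59 to 3.14) and Fcgr2b (2.26 to 2.84) lie above those of the 3 activating receptors, and the intervals of Fcer2a and Pigr include 0.

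Since several IgG receptor genes and their shared subunit moved in the same direction, the stretches of 150 bases before their transcription starts are shown, from the RefSeq promoter table of GRCm38.p6, in which all 9 listed genes matched. They are written 5′ to 3′ along each gene. Capitals mark GAGGAA on either strand (TTCCTC when read on the gene's strand), a purine-rich sequence of the kind bound by Ets factors such as PU.1, the product of Spi1, and TTCNNNGAA, the palindromic letters of a STAT element. The motifs do not overlap in these stretches.

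Fcgr1 (chr3:96293970-96294119, minus strand): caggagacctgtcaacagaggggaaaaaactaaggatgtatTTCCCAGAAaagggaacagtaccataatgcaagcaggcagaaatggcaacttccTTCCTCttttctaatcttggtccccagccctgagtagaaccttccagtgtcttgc
Fcgr3 (chr1:171059404-171059553, minus strand): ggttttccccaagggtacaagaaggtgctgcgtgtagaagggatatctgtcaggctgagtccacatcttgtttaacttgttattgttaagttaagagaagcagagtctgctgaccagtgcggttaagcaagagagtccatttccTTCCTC
Fcgr4 (chr1:171018776-171018925, plus strand): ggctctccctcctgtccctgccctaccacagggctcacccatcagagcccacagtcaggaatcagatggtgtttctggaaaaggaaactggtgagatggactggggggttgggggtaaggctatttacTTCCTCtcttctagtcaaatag
Fcgr2b (chr1:170976072-170976221, minus strand): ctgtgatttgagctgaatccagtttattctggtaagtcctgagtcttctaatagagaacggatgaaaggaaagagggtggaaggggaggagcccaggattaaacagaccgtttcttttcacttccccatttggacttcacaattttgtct
Fcer1g (chr1:171234350-171234499, minus strand): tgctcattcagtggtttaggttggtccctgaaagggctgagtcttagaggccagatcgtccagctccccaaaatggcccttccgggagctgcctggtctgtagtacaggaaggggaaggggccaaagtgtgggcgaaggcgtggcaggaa

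The stretches of the 3 activating receptors Fcgr1, Fcgr3 and Fcgr4 each held TTCCTC, beginning 55, 6 and 22 bases before the start. For Fcgr3 the table gives 2 starts, and from the other the same letters begin 15 bases before it. Fcrls held GAGGAA as well, 144 bases before its start, so that 4 of the 9 listed genes had the motif in at least 1 of their windows. Counted by window rather than by gene, 14.5% of all 32851 promoter windows of this length, from 27025 genes, held it. A gene with several starts has more windows in which to match, so the 2 shares are not on the same footing. TTCNNNGAA stood in Fcgr1 alone among the 9, beginning 109 bases before the start, and in 4.09% of all windows. The stretches of Fcgr2b and Fcer1g, the genes with the highest folds among the members, held neither set of letters. A match is a description of these letters and not evidence of binding.

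Because the inhibitory receptor and the activating genes were read on the same arrays, their signals were also subtracted within each array. A single such value depends on the probes and has no meaning of its own, whereas its shift between tissues compares the differences of both genes. Fcgr2b minus Fcgr3 was 0.75 and 0.23 on the visceral arrays, against -0.48 and -0.65 on the parietal arrays, a shift of 1.05. Fcgr2b minus Fcgr1 was 2.52 and 2.24 on the visceral arrays, against 0.40 and 0.50 on the parietal arrays, a shift of 1.93. For Fcgr4 the shift was 2.01. The measured visceral excess of Fcgr2b was thus larger than that of Fcgr3 and Fcgr1. The probe of Fcgr4 was dim on all arrays and no detection value was used, so its shift does not show unequal change, and Fcgr1 also lay below the median signal of all genes. Against the signaling subunit it went the other way, with Fcgr2b minus Fcer1g at -0.59 and -0.72 on the visceral arrays, against -0.29 and -0.38 on the parietal arrays, a shift of -0.32. For each of the 4 pairs compared the groups did not overlap, but an exact two-sided permutation test of 2 arrays against 2 cannot go below p = 0.333, which was the value for every pair before and after adjustment.

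**Figure D3:**
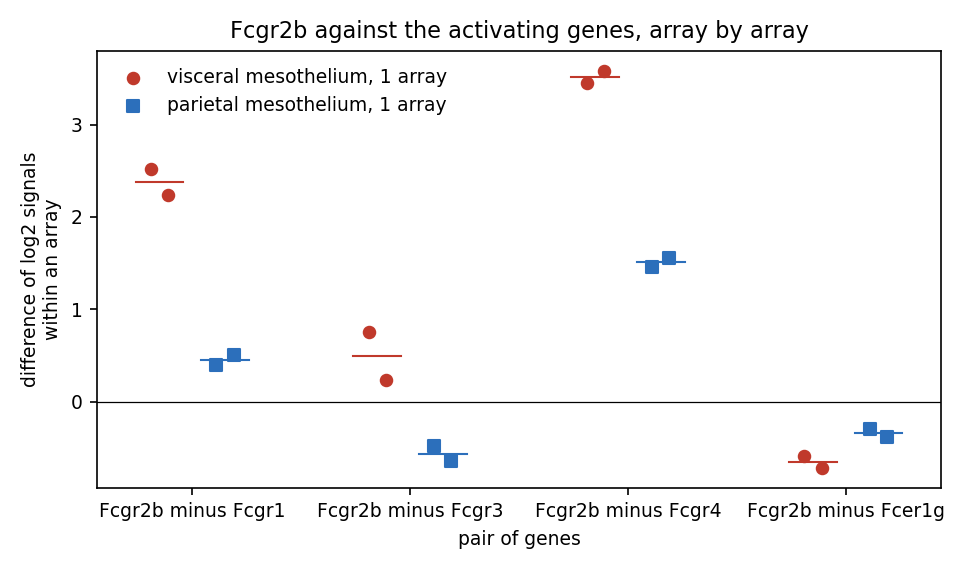
Difference between the log2 signals of Fcgr2b and each of 4 activating genes on the same array (y axis), by pair of genes (x axis), with 1 point per array, visceral mesothelium as circles, parietal mesothelium as squares, and lines for the means. The visceral arrays sit higher for Fcgr1, Fcgr3 and Fcgr4, with shifts of 1.93, 1.05 and 2.01, and lower for Fcer1g, with a shift of -0.32.

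Fcrls, an Fc receptor-like gene that in mice is known from tissue macrophages and microglia, had signals of 8.25 and 7.71 on the visceral arrays, against 6.71 and 6.57 on the parietal arrays. The visceral arrays differed from each other by more than the parietal ones, yet both were higher than either parietal array. The difference was 1.34 (standard error 0.18, adjusted p = 0.00698 from limma), a fold of 2.54 with a 95% interval of 1.85 to 3.48.

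The remaining members bind other antibody classes and were not called. Fcer2a, the low-affinity IgE receptor CD23 of B cells, had 5.79 and 6.02 on the visceral arrays, against 5.79 and 5.65 on the parietal arrays. The lower visceral and the higher parietal array were nearly equal. Its difference was 0.19 with a 95% interval of -0.09 to 0.46 (adjusted p = 0.358 from limma). Pigr, which carries polymeric IgA and IgM across secretory epithelia, had 6.11 and 6.20 on the visceral arrays, against 6.06 and 6.10 on the parietal arrays. Its difference was 0.07 with a 95% interval of -0.14 to 0.28 (adjusted p = 0.664 from limma), which leaves room for a change of up to 1.21-fold. Probes of Fcer2a, Pigr and Fcgr4 were dim, with 17.4%, 21.8% and 22% of all genes as dim or dimmer by mean signal, so that small differences of these genes may not be detectable on 4 arrays.

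In the mouse genome Fcgr2b, Fcgr4 and Fcgr3 neighbor each other on chromosome 1, and Fcer1g lies farther along the same stretch. From Dusp12, the protein-coding neighbor before Fcrlb, to Fcer1g, the RefSeq gene table lists 15 protein-coding genes, of which 13 were measured. Of the 4 Fc receptor members there, 3 were called higher in visceral mesothelium. Of the 9 other genes, 0 were called in either direction by limma, where 9.6% of all genes were. At that share, 0 of 9 does not set these neighbors apart from other genes. Their differences ran from -0.12 (Sdhc, a subunit of mitochondrial complex II) to 0.38 (Fcrla, an intracellular Fc receptor-like gene of B cells, adjusted p = 0.0402 from limma). Fcrla and Cfap126 (0.21) are the nearest measured genes on either side of the 3 Fcgr genes, and Apoa2, the apolipoprotein gene next to Fcer1g, differed by 0.03 (standard error 0.08).

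**Figure D4:**
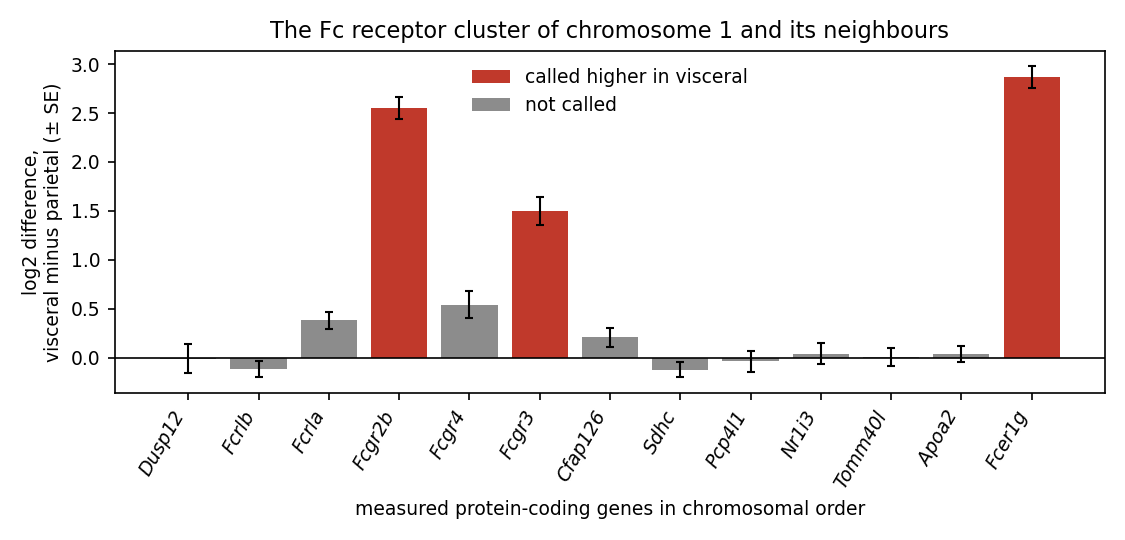
Log2 difference, visceral minus parietal mesothelium, with its standard error (y axis), of the 13 measured protein-coding genes around the Fc receptor cluster of chromosome 1 in their order along it (x axis), evenly spaced. Red bars were called higher in visceral mesothelium, at Fcgr2b, Fcgr3 and Fcer1g, and grey bars were not called, with the 9 genes that are no members between -0.12 and 0.38.

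Among genes known to drive or permit Fc receptor expression, 3 of 11 measured were called higher and 0 lower in visceral mesothelium, with a median difference of 0.19. Spi1, the gene of PU.1, 1 of the factors that bind the purine-rich letters shown above, had signals of 9.29 and 9.03 on the visceral arrays, against 7.21 and 7.23 on the parietal arrays. Its difference was 1.94 (adjusted p = 0.000373 from limma). Irf8, a transcription factor of myeloid and B cells, rose by 1.09 and the interleukin receptor chain Il10ra by 1.39. Tgfbr2, a receptor for TGF-beta, differed by -0.47 (adjusted p = 0.0183) and fell short of the fold, and Stat3 differed by 0.19 (adjusted p = 0.282).

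Downstream of the activating receptors, 11 of 26 measured signaling genes were called higher and 0 lower in visceral mesothelium, with a median difference of 0.40. The adaptor Lcp2, which links the kinase Syk to phospholipase C in myeloid cells, rose by 1.88 (adjusted p = 0.000154 from limma). The Src-family kinase Fyn rose by 1.38, the GTPase Rac2 by 1.36, the exchange factor Vav1 by 1.20, the adaptor Lat2 by 1.01 and the phospholipase Plcg2 by 0.97. Pik3r1, a regulatory subunit of PI3-kinase that most cells express, differed by 0.52 (adjusted p = 0.0113), below the fold required, and the adaptor Gab2 by -0.12 (adjusted p = 0.429). On the inhibitory side, 1 of 11 genes was called higher and 0 lower, with a median of 0.20. That gene was Inpp5d, which encodes the phosphatase SHIP that the ITIM of Fcgr2b recruits. Its signals were 8.65 and 8.93 on the visceral arrays, against 7.19 and 7.37 on the parietal arrays, a difference of 1.51 (adjusted p = 0.00129 from limma). The ubiquitin ligase Cblb differed by -0.05 and the phosphatase Ptpn11 by 0.14, and neither was called. Dok2 differed by 0.49 (adjusted p = 0.0325 from limma) and fell short of the fold. Ptpn6 differed by 0.46 (adjusted p = 0.0502 from limma), and the lowest of the list was Inppl1 at -0.17. Without visceral replicate 1 a further inhibitory gene was called, which made 2.

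Fcer1g has a close functional relative in the ITAM adaptor Tyrobp, and of 9 measured genes that encode Tyrobp, Hcst or receptors that pair with such adaptors, 3 were called higher and 0 lower, with a median of 0.11. Tyrobp had 10.86 and 10.74 on the visceral arrays, against 8.28 and 8.53 on the parietal arrays, a difference of 2.39 (adjusted p = 0.000195 from limma). Its partner receptors Trem2 and Clec5a rose by 1.85 and 0.99. The adaptor Hcst (0.13) and the receptor Oscar (-0.12), which pairs with Fcer1g, were not called.

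Of 10 other measured genes of Fc receptors, 1 was called higher and 0 lower, with a median of 0.23. Among all genes, 5.22% were called higher and 4.39% lower. Fcer1a, the IgE-binding chain of the mast cell receptor, had 6.38 and 6.37 on the visceral arrays, against 5.37 and 5.49 on the parietal arrays. The difference was 0.95 (adjusted p = 0.00169 from limma). Ms4a2, the beta chain of the same receptor, had 6.52 and 6.24 on the visceral arrays, against 6.69 and 6.83 on the parietal arrays. The chain thus differed by -0.38 and was not called (adjusted p = 0.106). Of the 3 kinds of chain in the high-affinity IgE receptor, the alpha chain gene and Fcer1g were called higher in visceral mesothelium and the beta chain gene was not. Probes of Fcer1a and Ms4a2 were dim, with 18.6% and 29.1% of all genes as dim or dimmer by mean signal. No detection value was used, so the result for Ms4a2 does not show that the chains changed unequally. Trim21, an intracellular antibody receptor, differed by 0.42 and passed on p alone (adjusted p = 0.0255), as did Fcrla at 0.38. The B cell genes Fcrl5 (0.50), Fcrl1 (0.19) and Fcmr (0.27) were not called, nor were Fcrlb (-0.12), Fcrl6 (-0.07) and Fcamr (-0.03). Without visceral replicate 1, 2 genes of this list were called.

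Of the antibody genes themselves, only 4 of the 13 listed, which are constant-region genes and the joining chain, had a probe of their own. The joining chain gene Jchain, whose product makes IgA and IgM polymers that Pigr carries, had 9.20 and 9.63 on the visceral arrays, against 5.55 and 5.35 on the parietal arrays, a difference of 3.97 (adjusted p = 0.000134 from limma). Igha, the constant region of IgA, differed by 2.20 (adjusted p = 0.0328), with visceral arrays at 9.62 and 8.07 against parietal arrays at 6.59 and 6.70. The visceral arrays of Igha lay far apart, and when all probes were tested neither of its 2 probes passed (adjusted p = 0.0903 and 0.125). Ighm, the constant region of IgM, differed by 0.57 on its brightest probe and was not called (adjusted p = 0.285 from limma). The visceral arrays of that probe lay apart, at 7.78 and 8.74. When all probes were tested by limma, its 2 dimmer probes differed by 0.58 (adjusted p = 0.0246) and 1.13 (adjusted p = 0.0383). The larger of these differences passed both the fold and the p required, and the smaller fell just short of the fold. Ighg3 differed by -0.09. Jchain and Igha were thus called higher in visceral mesothelium and Pigr, with a difference of 0.07, was not.

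Of 11 genes tied to Fcgrt and Pigr as partners or in their transport, 1 was called higher, 2 lower and 8 were not called. The median was 0.07. Among all genes, 5.22% were called higher and 4.39% lower, and counts this small do not set the list apart. The motor Myo5b, which moves recycling vesicles, had 9.44 and 9.46 on the visceral arrays, against 11.78 and 11.87 on the parietal arrays, a difference of -2.37 (adjusted p = 9.58e-05 from limma). Rab11fip1, an effector of Rab11 on the same vesicles, had a difference of -1.52 (adjusted p = 0.00121). Alb, the gene of albumin, which Fcgrt binds, rose by 1.78 (adjusted p = 0.0205), with visceral arrays at 7.51 and 8.53 against parietal arrays at 6.42 and 6.07. B2m, the light chain of the Fcgrt receptor and of class I molecules, differed by 0.18 and Rab11b by 0.10, and neither was called. Without visceral replicate 1, or without parietal replicate 2, 2 genes of this list were called higher. Of the 3 genes known as partners or the sheddase of Fcer2a, 0 were called by limma, with Cd81 at 0.18 and the protease Adam10 at -0.13, and 1 of them, Cr2, had an unadjusted p under 0.05 (0.0406).

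**Figure D5:**
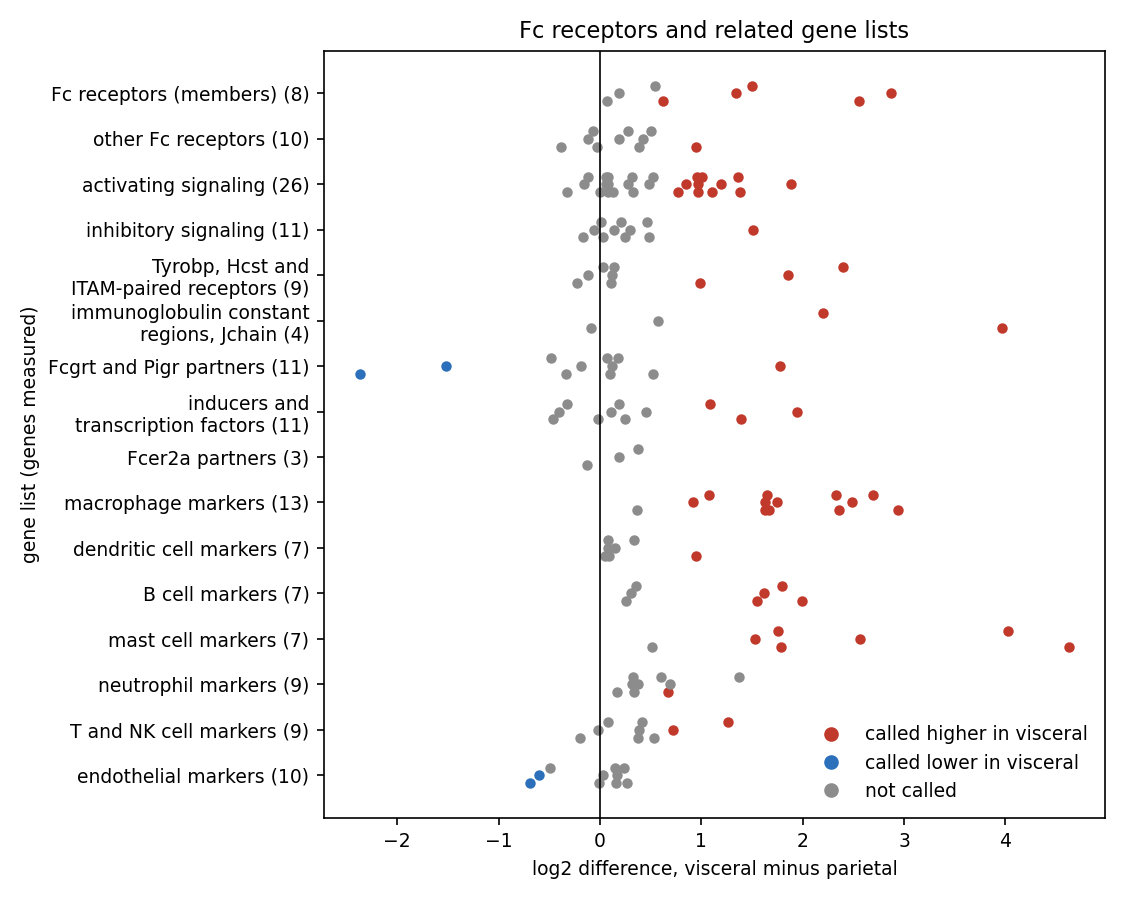
Visceral minus parietal log2 signal (x axis) of the Fc receptor members, 8 related gene lists and the markers of 7 cell types (y axis, with the number of genes measured). Each point is 1 gene, red where called higher in visceral, blue where called lower and grey where not called. The Fc receptors spread from 0.07 to 2.87, and 12 of 13 macrophage markers and 6 of 7 mast cell markers are red.

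Markers of leukocytes that carry Fc receptors moved in the same direction. Of 13 macrophage markers, 12 were called higher and 0 lower in visceral mesothelium, with a median of 1.67, and their summed linear signal was 24745 to 26299 on the visceral arrays and 6890 to 7759 on the parietal arrays. The complement chain C1qc differed by 2.94, the mannose receptor Mrc1 by 2.69 and the phagocytic receptor Timd4 by 1.74. Of these 13 markers, 1 had a larger difference than Fcer1g, 2 a larger one than Fcgr2b, 10 a larger one than Fcgr3 and Fcrls, and 12 a larger one than Fcgr1. Of 7 mast cell markers, 6 were called higher, with a median of 1.78 and a summed linear signal of 6845 to 8926 on the visceral and 834 to 942 on the parietal arrays. Cpa3 had a difference of 4.63, Tpsb2 of 2.56 and Cma1 of 1.78, all of them mast cell proteases. Of 7 measured B cell markers, 4 were called higher, including Bank1 (1.99), Cd79b (1.80) and Cd79a (1.61), with a summed linear signal of 1514 to 1910 on the visceral and 659 to 703 on the parietal arrays.

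Fewer markers of other carriers of Fc receptors were called. For the neutrophil, T and NK cell and dendritic cell lists, 0 markers had a mean above the median signal of all genes. All 13 macrophage markers did. No detection value was used, so low counts in these lists do not show that those cells differed little. Among all genes, 5.22% were called higher and 4.39% lower. Of 9 neutrophil markers, 1 was called higher, S100a9 (0.67), and 5 without visceral replicate 2, at a summed linear signal of 870 to 1310 on the visceral and 687 to 694 on the parietal arrays. Without parietal replicate 2 the count was 2. The median over the neutrophil markers was 0.38. Ngp, which was not called, had a larger difference than S100a9, at 1.37 (adjusted p = 0.0829 from limma). Its visceral arrays lay apart, at 8.47 and 7.16. Of 9 markers of T and NK cells, 2 were called higher, Il7r (1.26) and Cd3g (0.72). Their sums were 787 to 939 on the visceral and 667 to 677 on the parietal arrays, taken over all 9 markers. Of 7 dendritic cell markers, 1 was called higher, Cd209a (0.95), with sums of 902 to 930 on the visceral and 738 to 766 on the parietal arrays. Of 10 endothelial markers, 0 were called higher and 2 lower, Esam (-0.69) and Cdh5 (-0.60), with sums of 3634 to 3862 on the visceral and 4707 to 4921 on the parietal arrays. Leaving out visceral replicate 1 or parietal replicate 2 left 1 endothelial marker called lower, and leaving out parietal replicate 1 made it 3. Of 6 markers of intestinal and secretory epithelium, where Pigr is abundant, 0 were called higher and 1 lower, Krt20 (-0.70), with sums of 654 to 700 on the visceral and 689 to 714 on the parietal arrays. Of 8 adipocyte markers, 0 were called higher and 1 lower, Lpl (-0.85), and 5 lower without parietal replicate 2. The arrays give no value of 0 to any marker. The part of any of these cell types in the differences of the Fc receptor genes was not tested.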

How the data were processed

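The 4 Affymetrix Mouse Gene 1.0 ST arrays, 2 of visceral and 2 of parietal mesothelium, were deposited as a table of log2 values for 35556 probe sets, called probes here. The authors made these log2 values by RMA, which subtracts background, equalizes the arrays and summarizes each probe set, in Partek 6.6. The library version is not given in the sources used here, and no intensity or detection value was used. RMA brings the arrays to a common distribution, so that differences are relative to the other genes of an array.

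Probes with exactly 1 symbol in the platform annotation (21789, against 1621 with several and 12146 with none) were kept, with the highest mean per gene (19938 genes). All 4 arrays entered 1 comparison of the tissues, fitted by limma 3.58.1 under R 4.3.3 and adjusted over all genes. The code was tested on simulated data. The members and all lists were chosen with earlier results of these data known. Named genes are all members, all other Fc receptor genes, up to 6 called and 2 bright uncalled genes of each pathway list and up to 3 called genes of each marker list. Cr2, Cfap126, Sdhc, Apoa2, Wt1, Ngp, Dok2, Ptpn6 and Inppl1 were named after their values were seen. The alternatives covered the methods' one-way ANOVA, variance priors, thresholds, normalizations, a filter on dim genes, probe rules, a replicate block and each array left out. No scan dates were used, so batches were not examined.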

Additional observations from a re-analysis of the deposited data

How the results depend on the processing

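The 5 Fc receptor genes called higher in visceral mesothelium stayed called under the other variance priors, thresholds, normalizations and probe rules, the replicate block and each left-out array. Exceptions were the methods' one-way ANOVA after adjustment, which called 0 of the members and 0 of all genes, against 5 members and 1582 genes (876 higher in visceral mesothelium) at an unadjusted p under 0.05, and the filter on genes above the median signal, which called 3 members because it removed the other genes from the test. No member changed direction. On leaving out each array in turn, with the lone array of a tissue assumed to vary like the pair of the other, the difference was 2.75 to 2.98 for Fcer1g, 2.43 to 2.68 for Fcgr2b, 1.34 to 1.65 for Fcgr3, 1.08 to 1.61 for Fcrls and 0.60 to 0.64 for Fcgr1. Without a fold threshold, 1574 genes were called higher in visceral mesothelium, against 1040 with it, and 5 members. Replicate numbers are shared between the tissues but are not said to mark the same animals. Deviations of same-numbered arrays from the mean of their tissue correlated at 0.36. With 2 arrays per tissue this is 1 value, because the second pair mirrors the first. With the replicate block 2008 genes and 5 members were called, against 1915 and 5 without it. The number of arrays, and dim probes for Fcgr4, Fcer2a and Pigr, limit what can be detected.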
